A study of Mus musculus with 10 samples.

Results

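Integrins, laminins and the other proteins of the basement membrane were followed in P14 lungs after increased pulmonary blood flow (IncPBF). The set holds 40 genes, chosen by symbol from the 54532 genes of the deposited table. It covers 19 integrin chains, 9 laminin chains, 4 linker proteins and proteoglycans, 6 adhesive or other matrix proteins, dystroglycan and dystonin. All 40 symbols were found once, and all 40 had the same coordinates in GENCODE M21 on GRCm38. The animals were wild-type C57/BL6 pups of either sex, and every pup was anesthetized and opened at the midline at P7. In the 5 IncPBF pups a needle was passed from the abdominal aorta into the inferior vena cava to make a fistula, and the 5 sham pups had the same operation without the puncture. The shunt was thus abdominal and outside the heart and lung. Bulk RNA-sequencing measured the RNA of all cells of the lung together, and fewer cells of a type and less RNA per cell cannot be told apart in such data.

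The basement membrane is a thin sheet of matrix under epithelia and endothelia and around muscle and nerve fibers. Laminins, each built of an alpha, a beta and a gamma chain, and type IV collagen form its networks, which nidogens, perlecan and agrin connect. Integrins are receptors of an alpha and a beta chain that bind cells to laminin, collagen or proteins with an RGD motif such as fibronectin, and dystroglycan is another laminin receptor. In the alveolus the epithelial and endothelial cells lie against a shared basement membrane across which gas is exchanged.

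The lungs had 16103423 to 20318525 fragments on genes. The deposited unit is FPKM, in which fragments are scaled by gene length and by the size of the library, so levels of different genes can be compared. Each member was covered by 40 to 56311 fragments per lung. Sex is not given in the labels. IncPBF lungs 2 to 5 had 52.4 to 66.5 FPKM of Xist, the RNA that coats the inactive X, and no other lung exceeded 0.0770 FPKM. Y-linked Ddx3y reached 18.6 FPKM in IncPBF lung 1 and 21.9 to 24.6 FPKM after sham surgery, and stayed at or under 0.00926 FPKM elsewhere. The group and the sex-linked signal therefore part in IncPBF lung 1 alone. Lung markers were present in every library, with a summed FPKM of 8 AT2 genes of 11206 to 16888.

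The test, limma on log2(FPKM + 0.1), took in every gene whose 10-lung mean reached 0.5 FPKM, and p was adjusted by the Benjamini-Hochberg method over all 15388 genes. A gene with an adjusted p under 0.05 counted as changed. Of the 40 members 39 were tested, and Itgb8 fell just short of the filter with a mean of 0.490 FPKM. In the IncPBF group 3 members were upregulated (Frem1, Itga4 and Itgav), 10 were downregulated (Tnxb, Itga8, Npnt, Itga3, Itga6, Lama4, Fn1, Itgb5, Lama2 and Agrn) and 26 did not pass. The 13 changed members are 33.3% of those tested, against 32.3% of all genes, so the share of changed members is near the background. By direction 7.69% of the members tested were upregulated and 25.6% downregulated, against 16.1% and 16.2% of all genes. The groups did not overlap in 9 of the 39 members tested, or 23.1%, against 23.2% of all genes. At a minimum of 1.5-fold 1 upregulated (Frem1) and 2 downregulated members (Tnxb and Itga8) were left, while 9.44% of all genes passed. The median log2 difference of the members tested was -0.15, against 0.01 for all genes. After scaling all lungs to the same total of fragments on genes, all genes gave 3559 upregulated and 1782 downregulated in place of 2480 and 2490, and the members gave 3 and 9. With log2 Xist as a covariate, 3 of the 39 members tested passed the threshold, or 7.69%, against 4.82% of all genes. The group difference in that fit rests mainly on IncPBF lung 1.

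**Figure D1:**
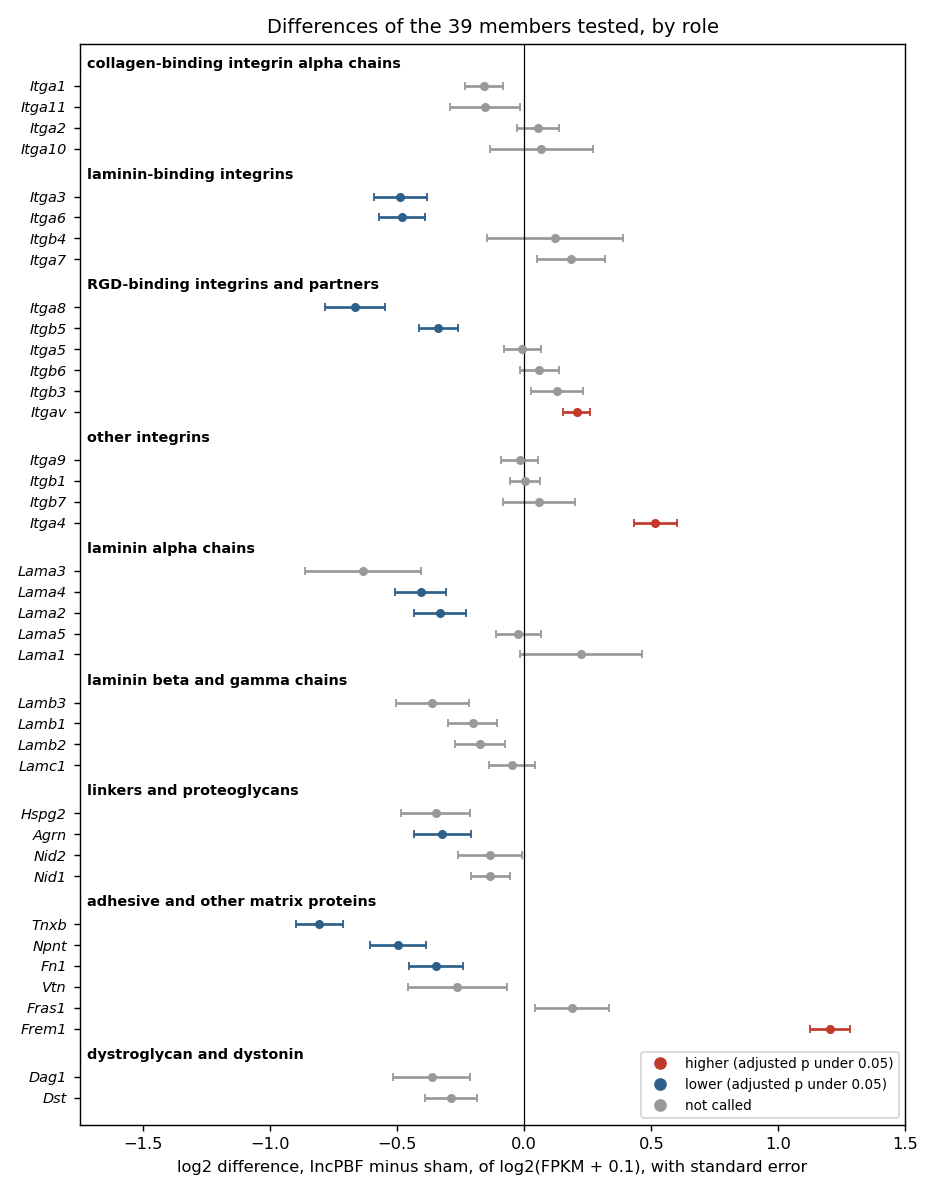
Log2 difference between the IncPBF and sham groups for the 39 members tested, grouped by role, on the scale of log2(FPKM + 0.1). Points are the limma estimates, bars are standard errors, and colour marks an adjusted p under 0.05: 3 members lie to the right and 10 to the left, with Frem1 at 1.20 and Tnxb at -0.81 as the ends.

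Among the laminin alpha chains 2 of 5 were downregulated and none upregulated, against 16.2% and 16.1% of all genes tested. Lama4, a chain of vascular basement membranes, was 19.4 ± 1.54 FPKM after IncPBF and 25.9 ± 3.88 FPKM after sham surgery (SD, n = 5 per group), with a log2 difference of -0.41 (standard error 0.10, adjusted p = 0.0105). Lama2, known from the basement membrane of muscle and nerve, was 8.38 ± 0.594 against 10.7 ± 1.74 FPKM, with a log2 difference of -0.33 (standard error 0.10, adjusted p = 0.03). The groups overlapped in both genes. The highest IncPBF and lowest sham lungs were at 20.9 and 20.6 FPKM for Lama4 and at 9.05 and 8.71 FPKM for Lama2. The call of Lama2 held in 4 of the 10 fits that left out 1 lung, and its adjusted p was 0.0548 to 0.0733 in the 6 others, those without IncPBF lung 1, 3 or 4 or sham lung 1, 2 or 5. Lama3, the alpha chain of the laminin that anchors epithelia, was 34.98, 25.5, 15.1, 17.8 and 35.8 FPKM in sham lungs 1 to 5 and 15.1, 17.6, 14.6, 12.9 and 18.7 FPKM in IncPBF lungs 1 to 5. Sham lungs 3 and 4 lay within the IncPBF range and sham lungs 1, 2 and 5 well above it. Its log2 difference of -0.63 (adjusted p = 0.0541) missed the threshold, and without sham lung 3 it was -0.81 with an adjusted p of 0.0103. With other lungs left out it shrank to as little as -0.50, and the adjusted p reached 0.124. Lama5, the most abundant of these chains, was 32.5, 28.5, 27.9, 27.0 and 36.7 FPKM in sham lungs 1 to 5 and 29.5, 27.4, 34.0, 28.6 and 30.2 FPKM in IncPBF lungs 1 to 5. These ranges overlapped almost fully, with a log2 difference of -0.024 (adjusted p = 0.866). Lama1, an embryonic chain, was low at 0.550 ± 0.121 against 0.460 ± 0.1204 FPKM.

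The share of each chain in the summed FPKM of Lama1 to Lama5 shows how the mixture of alpha chains stood in each lung. Lama5 made up 40.4% ± 2.82 after IncPBF and 33.1% ± 3.25 after sham surgery (SD, n = 5 per group). Its range was 36.9 to 43.3% after IncPBF and 29.9 to 38.0% after sham surgery, and sham lung 3 was the one sham lung within the IncPBF range. Lama3 made up 21.3% ± 2.38 after IncPBF and 26.9% ± 5.08 after sham surgery. Lama4 made up 26.2% ± 0.587 after IncPBF and 28.0% ± 2.03 after sham surgery, and Lama2 11.3% ± 0.532 after IncPBF and 11.5% ± 1.07 after sham surgery. Lama1 stayed under 1% in every lung, at 0.305 to 0.934%. The summed level itself was 66.5 to 78.8 FPKM after IncPBF and 73.6 to 115 FPKM after sham surgery, so a larger share of Lama5 stood beside a level of Lama5 that overlapped between the groups. These shares are a description and were not tested.

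**Figure D2:**
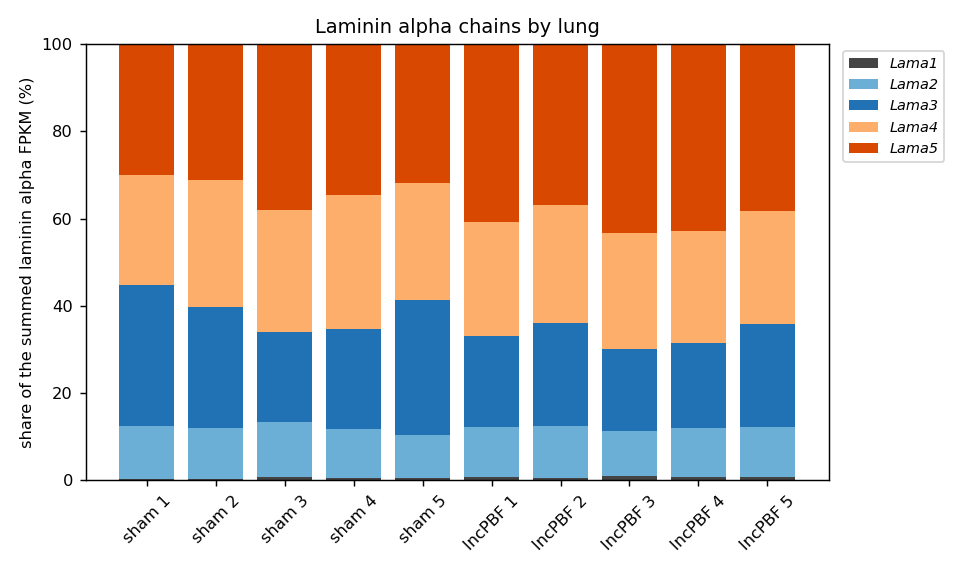
Share of each laminin alpha chain in the summed FPKM of Lama1 to Lama5, in percent, for the 5 sham and 5 IncPBF lungs. Each bar is 1 lung: the Lama5 part is 36.9 to 43.3% after IncPBF and 29.9 to 38.0% after sham surgery.

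None of the 4 laminin beta and gamma chains passed the threshold. Lamc1, the gamma chain of most laminins and the most abundant laminin chain here, was 137, 129, 116, 113 and 152 FPKM in sham lungs 1 to 5 and 119, 128, 125, 112 and 140.5 FPKM in IncPBF lungs 1 to 5. The groups overlapped, with a log2 difference of -0.049 (adjusted p = 0.713). Lamb3, the beta partner of Lama3, was 19.2 ± 1.98 against 25.2 ± 5.59 FPKM, a log2 difference of -0.36 (adjusted p = 0.0756). Lamb1 and Lamb2 had log2 differences of -0.20 (adjusted p = 0.131) and -0.17 (adjusted p = 0.207). Without sham lung 3, Lamb3 and Lamb1 passed the threshold, with adjusted p values of 0.0114 and 0.0174. With other lungs left out the adjusted p reached 0.168 for Lamb3 and 0.264 for Lamb1.

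Of the linker proteins, 1 of 4 was downregulated, against 16.2% of all genes tested. Agrin, encoded by Agrn, a heparan sulfate proteoglycan that binds laminin and dystroglycan, was 59.9 ± 2.53 FPKM after IncPBF and 76.0 ± 14.4 FPKM after sham surgery. Its log2 difference of -0.32 (standard error 0.11, adjusted p = 0.0497) lay at the threshold, the groups overlapped, and the call held only in the fits without sham lung 3 or 4 among the 10 that left out a lung, with adjusted p values of 0.0732 to 0.112 in the others. Hspg2, which encodes perlecan, had a log2 difference of -0.35 (adjusted p = 0.0699), with 35.6 ± 1.81 against 46.3 ± 10.8 FPKM. It passed without sham lung 3 (adjusted p = 0.0204) and without sham lung 4 (adjusted p = 0.0296), and the adjusted p reached 0.145 with other lungs left out. Nid1, the more abundant of the nidogens, which bind laminin to type IV collagen, was 119, 111, 93.8, 101 and 119.7 FPKM in sham lungs 1 to 5 and 97.5, 102, 103, 89.8 and 103 FPKM in IncPBF lungs 1 to 5. Nid1 and Nid2 had log2 differences of -0.13 (adjusted p = 0.209) and -0.13 (adjusted p = 0.441), and both sets of lungs overlapped.

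Among the 39 members tested, the largest log2 differences in both directions were those of adhesive and other matrix proteins. Itgb8, outside the test, had a larger ratio of means than Frem1, 2.37 against 2.32. Tnxb encodes tenascin-X, a glycoprotein of loose connective tissue that lies along collagen fibrils. Tnxb (ENSMUSG00000033327, chromosome 17 from 34670535 to 34719815 of GRCm38) was 9.91, 9.09, 7.72, 8.37 and 10.3 FPKM in sham lungs 1 to 5 and 5.30, 5.77, 4.73, 5.34 and 4.55 FPKM in IncPBF lungs 1 to 5. No IncPBF lung came up to the lowest sham lung, and the group means were 5.14 ± 0.495 against 9.08 ± 1.07 FPKM (SD, n = 5 per group). The log2 difference of -0.81 (standard error 0.09, adjusted p = 0.000117) was the largest fall of the set. Npnt encodes nephronectin, an RGD protein of the basement membrane and ligand of the integrin of Itga8 and Itgb1. Npnt (chromosome 3 from 132881745 to 132950291) was 476, 552, 378, 429 and 538 FPKM in sham lungs 1 to 5 and 348, 351, 300.0, 306 and 367 FPKM in IncPBF lungs 1 to 5. The IncPBF lungs were all lower than the sham lungs, although IncPBF lung 5 and sham lung 3 were close. The means of 334 ± 29.6 against 475 ± 73.3 FPKM differed by 29.6%, with a log2 difference of -0.50 (standard error 0.11, adjusted p = 0.00622). Npnt had the highest sham mean of all 40 members, above that of Itgb1, and the second highest IncPBF mean.

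Fn1, which encodes fibronectin, was 179.9 ± 16.4 against 230.1 ± 35.1 FPKM, with a log2 difference of -0.35 (standard error 0.11, adjusted p = 0.0286). The groups overlapped at IncPBF lung 5, and the adjusted p was above 0.05 in 5 of the 10 fits without 1 lung, up to 0.0716 without IncPBF lung 4. Vtn, which encodes vitronectin, was low in both groups, at 4.94 ± 0.813 against 6.10 ± 1.83 FPKM, and did not pass (adjusted p = 0.327). Frem1 went the other way. It encodes a secreted protein that, with Fras1, fastens embryonic epithelia to the mesenchyme below. Frem1 (chromosome 4 from 82897920 to 83052339) was 4.92, 5.43, 5.06, 5.61 and 6.37 FPKM in sham lungs 1 to 5 and 13.2, 12.6, 13.4, 11.2 and 13.1 FPKM in IncPBF lungs 1 to 5. All IncPBF lungs were above all sham lungs, by a ratio of means of 2.32, with a log2 difference of 1.20 (standard error 0.08, adjusted p = 5.05e-06). Its log2 difference was 1.17 to 1.26 with each lung left out in turn. Fras1, its partner, was 3.78 ± 0.671 against 3.32 ± 0.714 FPKM, and its log2 difference of 0.19 (adjusted p = 0.36) did not pass the threshold.

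**Figure D3:**
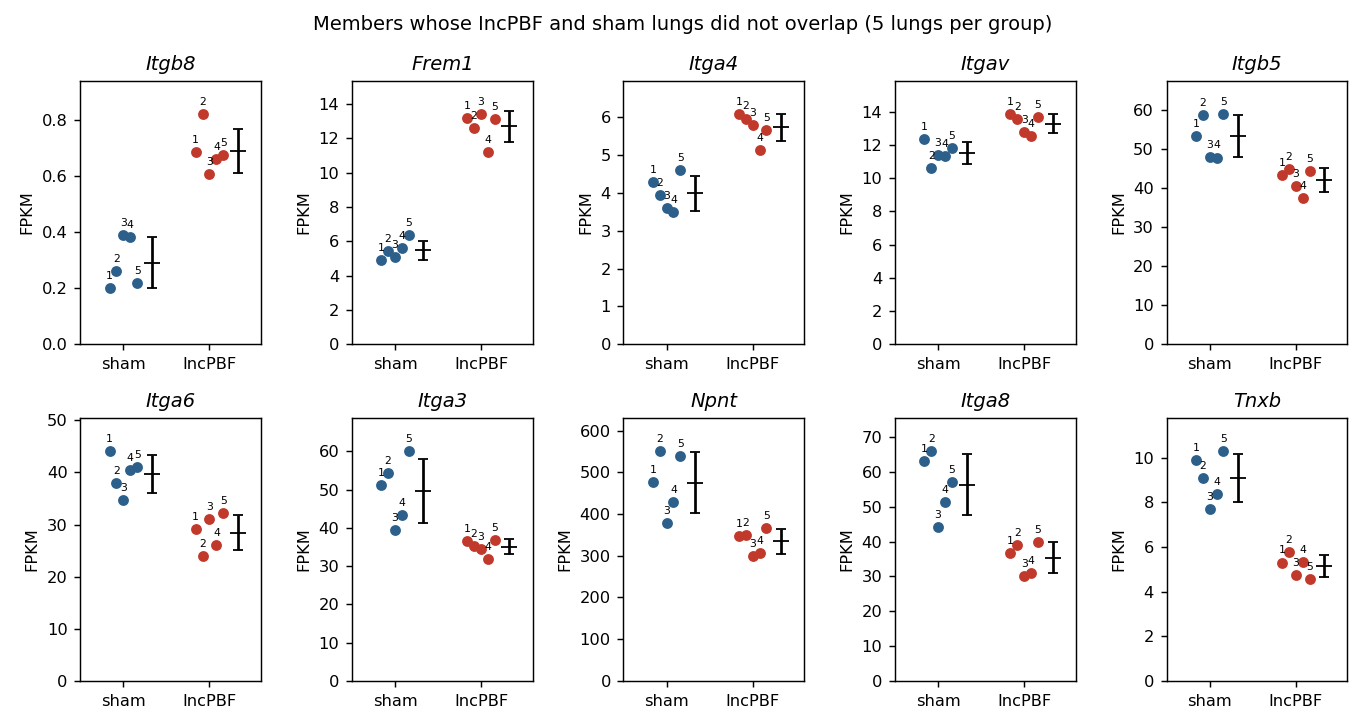
FPKM of the 10 members whose IncPBF and sham lungs did not overlap, ordered from the highest to the lowest ratio of IncPBF to sham means, on linear axes from 0. Each point is a lung numbered as in the deposited table, and the black bars are group means with SD (n = 5): Itgb8, Frem1, Itga4 and Itgav are higher in the IncPBF lungs, the other 6 lower.

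Of the laminin-binding integrins, both Itga3 and Itga6 were downregulated. These alpha chains pair with Itgb1 and, in the case of Itga6, also with Itgb4 in the hemidesmosomes of epithelia. Itga3 (chromosome 11 from 95044474 to 95076801) was 51.2, 54.3, 39.5, 43.3 and 60.2 FPKM in sham lungs 1 to 5 and 36.5, 35.4, 34.4, 31.9 and 36.9 FPKM in IncPBF lungs 1 to 5. The IncPBF lungs lay in a narrow band under the lowest sham lung, sham lung 3. Its log2 difference of -0.49 (standard error 0.10, adjusted p = 0.00487) corresponds to 35.03 ± 1.98 against 49.7 ± 8.36 FPKM. Itga6 (chromosome 2 from 71745616 to 71858416) was 44.2, 38.0, 34.7, 40.5 and 41.1 FPKM in sham lungs 1 to 5 and 29.1, 24.0, 31.1, 26.0 and 32.1 FPKM in IncPBF lungs 1 to 5. Here too the groups were apart, with IncPBF lung 5 and sham lung 3 nearest to each other, and the log2 difference of -0.48 (standard error 0.09, adjusted p = 0.00228) was similar in size. Itga7, a laminin receptor of muscle, and Itgb4 were low and did not pass, at 2.86 ± 0.339 against 2.53 ± 0.474 FPKM and 1.29 ± 0.343 against 1.22 ± 0.496 FPKM.

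Among the integrins that bind RGD proteins and their partners, Itga8 and Itgb5 were downregulated and Itgav upregulated. Itga8, the alpha chain of the nephronectin receptor, is known from mesenchymal and smooth muscle cells. Itga8 (chromosome 2 from 12106632 to 12301922) was 63.2, 66.2, 44.2, 51.4 and 57.1 FPKM in sham lungs 1 to 5 and 36.8, 38.9, 30.2, 31.0 and 40.03 FPKM in IncPBF lungs 1 to 5. The highest IncPBF lung stayed under the lowest sham lung. Its means of 35.4 ± 4.54 against 56.4 ± 8.89 FPKM differed by 37.2%, with a log2 difference of -0.67 (standard error 0.12, adjusted p = 0.00181). The ligand Npnt and its receptor chain Itga8 were thus both downregulated, while Itgb1, the beta chain of that receptor, was 367, 365, 328, 350.0 and 351 FPKM in sham lungs 1 to 5 and 353, 358, 336, 343 and 372 FPKM in IncPBF lungs 1 to 5. Itgb1 is shared by most integrins and had the smallest difference of the set, 0.0012 on the log2 scale with an adjusted p of 0.989, and its groups overlapped. Itgb5 (chromosome 16 from 33829665 to 33949338), which pairs with Itgav in a vitronectin receptor, was 53.2, 58.6, 47.9, 47.8 and 58.9 FPKM in sham lungs 1 to 5 and 43.2, 44.8, 40.4, 37.5 and 44.3 FPKM in IncPBF lungs 1 to 5. Both groups were apart, with a log2 difference of -0.34 (standard error 0.08, adjusted p = 0.00698).

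Itgav (chromosome 2 from 83724397 to 83806916), the alpha chain shared by Itgb3, Itgb5, Itgb6 and Itgb8, was 12.4, 10.6, 11.4, 11.4 and 11.8 FPKM in sham lungs 1 to 5 and 13.9, 13.5, 12.8, 12.5 and 13.7 FPKM in IncPBF lungs 1 to 5. Its rise was small, with a ratio of means of 1.15, and the lowest IncPBF lung and the highest sham lung differed by little. The log2 difference of 0.21 (standard error 0.05, adjusted p = 0.014) passed the threshold in all 10 fits without 1 lung. Itgb8 (chromosome 12 from 119158022 to 119238802), whose product with Itgav activates latent TGF-beta, was 0.202, 0.259, 0.389, 0.383 and 0.218 FPKM in sham lungs 1 to 5 and 0.683, 0.820, 0.607, 0.660 and 0.675 FPKM in IncPBF lungs 1 to 5. These values rest on 40 to 170 fragments per lung. All IncPBF lungs lay above all sham lungs, with a ratio of means of 2.37 (exact two-sided permutation test, p = 0.00794, the lowest p possible with 5 lungs in each group). This p is unadjusted and restates the lack of overlap, which 23.2% of all genes tested showed as well. Itgb8 was added after its values were seen. Itgb8 was outside the test at a minimum of 0.5 FPKM. Without that minimum limma gave a log2 difference of 1.04 (standard error 0.21, adjusted p = 0.00753), in a fit in which 13.4% of 31400 genes passed. Itgb6, which also activates TGF-beta with Itgav, was 11.2 ± 1.29 against 10.7 ± 0.472 FPKM and did not pass (adjusted p = 0.593). Itgb3 and Itga5 had log2 differences of 0.13 (adjusted p = 0.365) and -0.0086 (adjusted p = 0.94). The beta partners of Itgav differed in direction, with Itgb5 lower and Itgb8 higher, at levels that differed far more: the sham means were 53.3 FPKM for Itgb5 and 0.290 FPKM for Itgb8.

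Of the other integrins, Itga4 was upregulated. Itga4 encodes an alpha chain that binds VCAM1 and fibronectin and is best known from leukocytes. Itga4 (chromosome 2 from 79255426 to 79333123) was 4.30, 3.95, 3.60, 3.50 and 4.59 FPKM in sham lungs 1 to 5 and 6.08, 5.96, 5.80, 5.14 and 5.65 FPKM in IncPBF lungs 1 to 5. The groups were apart, with a ratio of means of 1.44 and a log2 difference of 0.52 (standard error 0.08, adjusted p = 0.00102). Its partner Itgb7, which is expressed by lymphocytes, was 5.89 ± 1.47 against 5.56 ± 0.635 FPKM and did not pass, and Itga9 was 34.9 ± 3.02 against 35.3 ± 2.87 FPKM. The summed FPKM of 8 lymphocyte markers was 21.3 to 24.6 FPKM after IncPBF and 23.5 to 30.2 FPKM after sham surgery, with 0 of the 7 tested changed, and that of 8 macrophage markers was 85.5 to 426 FPKM after IncPBF and 108 to 386 FPKM after sham surgery, with 0 of 8 changed. The macrophage sum varied mainly with 1 gene, Chil3, at 147 ± 115 FPKM after IncPBF and 101 ± 103 FPKM after sham surgery. Of the lymphocyte markers Cd3g, Cd3e, Cd8a and Ncr1 had a mean under 1 FPKM and none was at 0 in all lungs. The leukocyte integrin chains Itgam and Itgal, which are no members, were upregulated as well: Itgam was 1.33 ± 0.145 against 0.613 ± 0.199 FPKM (log2 difference 1.04, adjusted p = 0.00242, no overlap of the groups) and Itgal 5.75 ± 1.22 against 4.34 ± 0.405 FPKM (log2 difference 0.38, adjusted p = 0.0351, with overlap). Other leukocyte chains of that kind did not pass. The log2 differences were 0.19 for Itgb2 (adjusted p = 0.415), 0.026 for Itgax (adjusted p = 0.946) and -0.36 for Itgae (adjusted p = 0.211). The part of leukocytes in the difference of Itga4 was not tested.

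Some exons of changed members lie opposite those of a gene on the other strand. Among the integrins these are 5.05% of the exonic bases of Itga8, 8.04% of Itga4 and 5.90% of Itgav. Among the other changed members they are 3.86% of Lama2, 2.5% of Fn1 and 0.0246% of Tnxb. The strand setting of the counts is not known.

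None of the 4 collagen-binding alpha chains passed. Itga1, the most abundant of them, was 30.7, 29.5, 24.5, 27.5 and 32.2 FPKM in sham lungs 1 to 5 and 26.5, 27.0, 25.1, 23.6 and 26.6 FPKM in IncPBF lungs 1 to 5. The groups overlapped, with a log2 difference of -0.16 (adjusted p = 0.126), and without sham lung 3 the adjusted p was 0.0215. With other lungs left out it reached 0.262. Itga2 was 10.1 ± 0.796 against 9.77 ± 1.03 FPKM, and Itga10 and Itga11 were near 1 FPKM in both groups, at 0.850 ± 0.201 against 0.808 ± 0.178 FPKM and 0.913 ± 0.0824 against 1.03 ± 0.146 FPKM. Of the exonic bases of Itga10 in GENCODE M21, 33.5% are shared with another gene on the same strand, so its fragments could belong to either.

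Dystroglycan, encoded by Dag1, binds laminin, perlecan and agrin on the cell surface. Dag1 was 138, 135, 90.7, 103 and 161 FPKM in sham lungs 1 to 5 and 103, 98.5, 85.0, 81.8 and 113 FPKM in IncPBF lungs 1 to 5. Sham lungs 3 and 4 fell within the IncPBF range and sham lungs 1, 2 and 5 above it, and the log2 difference of -0.36 (adjusted p = 0.0887) did not pass. Without sham lung 3 it was -0.47 with an adjusted p of 0.0197, and with other lungs left out the adjusted p reached 0.186. Dst, a plakin that links the cytoskeleton to hemidesmosomes, was 6.56 ± 0.474 against 8.10 ± 1.32 FPKM, a log2 difference of -0.29 (adjusted p = 0.051). It passed without sham lung 3 or 4, with adjusted p values of 0.0294 and 0.0315, and the adjusted p reached 0.112 with other lungs left out.

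Promoter sequences are shown for the members that changed without overlap of the groups, or that did so below the filter, where 250 bases before the RefSeq start touch no annotated exon. RefSeq windows on GRCm38.p6 were at hand for 29 of the 40 members, and 5 of these met the condition, 3 downregulated (Npnt, Tnxb and Itgb5) and 2 upregulated (Itga4 and Itgav). They lie at chr3:132950292-132950541 on the minus strand for Npnt and, on the plus strand, at chr17:34670285-34670534 for Tnxb, chr16:33829415-33829664 for Itgb5, chr2:79255176-79255425 for Itga4 and chr2:83724147-83724396 for Itgav. Each is written 5′ to 3′ along its gene and ends 1 base before the start, and capitals mark matches to the motifs named after them.
Npnt: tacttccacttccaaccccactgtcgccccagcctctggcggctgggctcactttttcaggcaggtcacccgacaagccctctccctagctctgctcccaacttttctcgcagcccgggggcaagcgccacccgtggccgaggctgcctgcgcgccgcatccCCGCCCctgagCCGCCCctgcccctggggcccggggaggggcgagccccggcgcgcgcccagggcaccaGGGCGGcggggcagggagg
Tnxb: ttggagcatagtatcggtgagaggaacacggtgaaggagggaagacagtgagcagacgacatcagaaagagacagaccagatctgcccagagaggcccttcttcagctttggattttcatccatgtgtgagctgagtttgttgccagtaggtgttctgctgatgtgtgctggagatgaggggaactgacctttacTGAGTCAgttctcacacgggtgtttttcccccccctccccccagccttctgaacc
Itgb5: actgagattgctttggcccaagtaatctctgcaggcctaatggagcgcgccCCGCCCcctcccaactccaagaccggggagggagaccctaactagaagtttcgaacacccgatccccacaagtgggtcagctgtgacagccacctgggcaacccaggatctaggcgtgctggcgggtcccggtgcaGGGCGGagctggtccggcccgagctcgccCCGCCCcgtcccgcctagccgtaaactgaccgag
Itga4: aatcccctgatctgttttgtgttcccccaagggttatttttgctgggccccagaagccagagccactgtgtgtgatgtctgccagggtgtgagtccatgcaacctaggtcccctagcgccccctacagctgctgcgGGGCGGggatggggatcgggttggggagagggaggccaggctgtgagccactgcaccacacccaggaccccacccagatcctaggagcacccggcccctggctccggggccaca
Itgav: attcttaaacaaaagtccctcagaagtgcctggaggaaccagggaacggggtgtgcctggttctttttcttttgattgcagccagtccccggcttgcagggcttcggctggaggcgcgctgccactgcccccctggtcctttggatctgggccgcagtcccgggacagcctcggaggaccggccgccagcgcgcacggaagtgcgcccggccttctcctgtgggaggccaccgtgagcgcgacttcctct

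The motifs searched on both strands were GGGCGG (GC box), CATTCC (TEAD), TGANTCA (AP-1) and GACCACCCA (Gli). GC boxes were found 3 times in the Npnt and 3 times in the Itgb5 window and 1 time in the Itga4 window. Of all 32851 RefSeq windows of this length, 32.7% hold a GC box. The Tnxb window holds 1 AP-1 motif, which 6.75% of all windows have. The TEAD and Gli motifs, found in 12.6% and 0.225% of all windows, are in none of the 5, and the Itgav window has no match to any of the 4. The matches do not overlap each other. The share of G and C was 74.0% for Npnt, 65.2% for Itgb5, 64.4% for Itgav, 64.0% for Itga4 and 52.4% for Tnxb. A match is a description of the letters and no evidence of binding.

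The downregulated members shared a pattern across the sham lungs. In all 10 of them sham lung 3 or 4 was the lowest sham lung, and the highest was sham lung 1, 2 or 5. Among the 2490 genes downregulated over the whole table sham lung 3 or 4 was the lowest in 77.2%. The summed FPKM of 8 AT1 genes went the same way, at 1575 FPKM in sham lung 3 and 1738 FPKM in sham lung 4 against 1902 to 2090.4 FPKM in the other sham lungs. So did that of 8 endothelial genes, at 1064.5 and 1095.5 FPKM against 1204.9 to 1381.8 FPKM. The sum of 8 AT2 genes did not, with its highest sham value, 16888 FPKM, in sham lung 4. Sftpc, with a sham mean of 12095 FPKM, made up most of that sum, which therefore says little of the other AT2 genes. The part of these cell types in the pattern was not tested. Without sham lung 3, 17 members were downregulated in place of 10, the additional ones being Itga1, Lama3, Lamb1, Lamb3, Hspg2, Dag1 and Dst, and without sham lung 4 there were 13. As shares of the 39 members tested these are 43.6%, 25.6% and 33.3% for the fits without sham lung 3, with all lungs and without sham lung 4. Over all genes the downregulated share was 17.5%, 16.2% and 16.1% in the same fits. With any other lung left out the share was 17.9 to 23.1% of the members tested and 12.5 to 15.3% of all genes.

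**Figure D4:**
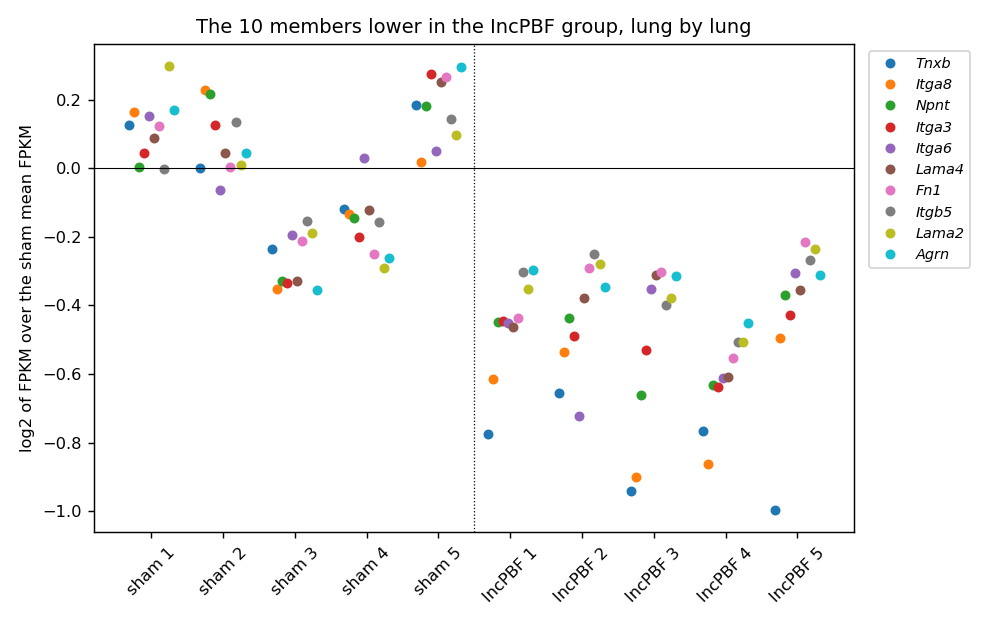
Log2 of the FPKM in each lung over the sham mean FPKM for the 10 downregulated members. Each point is 1 gene in 1 lung: all points of the 5 IncPBF lungs lie below 0, sham lung 3 or 4 is the lowest sham lung for each of the 10 genes, and Tnxb and Itga8 reach furthest down.

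Markers of several cell types differed between the groups beside these members. Over all genes tested 16.2% were downregulated and 16.1% upregulated. All 8 AT1 markers were downregulated, with summed levels of 1254 to 1368 FPKM after IncPBF and 1575 to 2090.4 FPKM after sham surgery. Of 8 AT2 markers 4 were downregulated (sums of 11206 to 13841 FPKM after IncPBF and 13658 to 16888 FPKM after sham surgery), and of 8 endothelial markers 5 (sums of 1029.6 to 1090.4 FPKM after IncPBF and 1064 to 1382 FPKM after sham surgery). Of 8 smooth muscle and myofibroblast markers 4 were upregulated and 1 downregulated, with sums of 336 to 630.1 FPKM after IncPBF and 140.1 to 268 FPKM after sham surgery. Of 8 fibroblast markers 3 were upregulated and 1, Pdgfra, downregulated, and of 8 pericyte markers 2 rose and 2 fell. All 5 mesothelial markers tested were downregulated, with sums of 68.9 to 92.3 FPKM after IncPBF and 95.2 to 159.6 FPKM after sham surgery, while Bnc1, Muc16 and Wt1 were under 1 FPKM. Of the 7 ciliated, 6 platelet and 6 striated muscle markers tested 0 passed, and of 3 Schwann cell markers 1 rose and 1 fell. No marker was at 0 in all lungs. The part of these cell types in the differences of the members was not tested.

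Other genes of the same matrix and adhesion system were counted in 4 lists. Of 25 other basement membrane components tested (of 29), 12 were downregulated and 5 upregulated, against 16.2% and 16.1% of all genes, with a median log2 difference of -0.30. The collagen IV chains Col4a3, Col4a4 and Col4a5, which form the network of mature alveolar basement membrane, were all downregulated, and Col4a5 was 26.2 ± 3.95 against 49.6 ± 12.0 FPKM (log2 difference -0.90, adjusted p = 0.00228). The largest falls were those of Col17a1, a hemidesmosome collagen, at 0.331 ± 0.0416 against 1.22 ± 0.337 FPKM (log2 difference -1.58, adjusted p = 0.000316), of Col4a5 and of Tinagl1 (log2 difference -0.84, adjusted p = 5.93e-05). Col15a1, a collagen of vascular and muscle basement membranes, rose from 7.17 ± 1.94 to 14.2 ± 2.42 FPKM (log2 difference 1.00, adjusted p = 0.00154), followed by Efemp2 (log2 difference 0.56, adjusted p = 0.000534) and Frem2 (log2 difference 0.47, adjusted p = 0.0496). Frem2 belongs to the same protein complex as Frem1 and Fras1, and its call lay at the threshold.

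Of 8 other integrin and laminin subunits tested (of 10), 2 were upregulated, Itgam and Itgal, whose values were given beside Itga4, and 1 was downregulated, the laminin gamma chain Lamc3, at 1.48 ± 0.248 against 3.67 ± 1.02 FPKM (log2 difference -1.22, adjusted p = 0.00101). Of 24 integrin adaptors and hemidesmosome partners tested (of 25), 7 were downregulated and 3 upregulated. Tns1, a tensin that ties integrin tails to actin, was 80.0 ± 6.37 against 179.8 ± 31.8 FPKM (log2 difference -1.15, adjusted p = 5.06e-05), and Lims2 and Tns2 fell as well (log2 difference -1.14, adjusted p = 5.28e-05, and log2 difference -0.92, adjusted p = 5.93e-05). Upregulated were Kank1 (log2 difference 0.29, adjusted p = 0.0168), Bcar1 (log2 difference 0.28, adjusted p = 0.02) and Ptk2, which encodes focal adhesion kinase (log2 difference 0.17, adjusted p = 0.0118). Of 16 genes of the dystrophin-glycoprotein complex and of dystroglycan glycosylation tested (of 18), 5 were downregulated and 0 upregulated at an adjusted p under 0.05 in limma. Dtna, which encodes a dystrobrevin of this complex, was 2.92 ± 0.112 against 5.64 ± 0.712 FPKM (log2 difference -0.92, adjusted p = 3.24e-05), and Utrn, which encodes utrophin, was lower too (log2 difference -0.41, adjusted p = 0.0413). The medians of these 3 lists were -0.02, -0.08 and -0.08 on the log2 scale. Over all genes tested 16.2% were downregulated and 16.1% upregulated.

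The sex-linked signal was entered as log2 Xist in a further fit. IncPBF lung 1 is the only IncPBF lung at the low Xist level of the sham lungs. The group difference in this fit therefore rests mainly on IncPBF lung 1 against the sham lungs, and the other IncPBF lungs add little to it. In it 741 of the 15388 genes passed the adjusted threshold, and 3 members did: Frem1 (log2 difference 1.27, adjusted p = 0.00178 from limma), Itga4 (0.62, 0.0394) and Tnxb (-0.74, 0.0333). All 13 changed members kept their sign. IncPBF lung 1 was also among the lungs behind each call, which favours a kept sign, so this is no test of the sex-linked signal. The standard errors of the 13 were 1.73 to 1.79 times those without the covariate. The log2 differences shrank in size for Itga8 (from -0.67 to -0.56), Npnt (from -0.50 to -0.40), Agrn (from -0.32 to -0.24) and Itga6 (from -0.48 to -0.43). Those of Itga3, Itgb5, Tnxb and Lama2 shrank as well. In Fn1 (from -0.35 to -0.40), Itgav (from 0.21 to 0.27), Itga4, Frem1 and Lama4 they grew in size. At an unadjusted p under 0.05 the fit had 9 of the 39 members tested (23.1%) and 20.6% of all genes, so this share is near the background. The 9 were the 3 above, Itga6, Itga8, Itgav and Lama4, and Itgb7 and Dst, which had not passed without the covariate. Itgb8, in the fit without a minimum level, had a log2 difference of 1.00 with an adjusted p of 0.223, and Itga4 had an adjusted p of 0.0546 in that fit. IncPBF lung 1, whose sex-linked genes were like those of the sham lungs, lay beyond the sham range on the side of the other IncPBF lungs in 9 of the 10 downregulated and in 3 of the 3 upregulated members. The exception was Agrn. Over the whole table this held for 91.8% of the changed genes, 91.9% of the downregulated and 91.6% of the upregulated ones. IncPBF lung 1 was itself among the lungs behind each call, which favours such a position. These counts are therefore no test of the sex-linked signal.

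**Figure D5:**
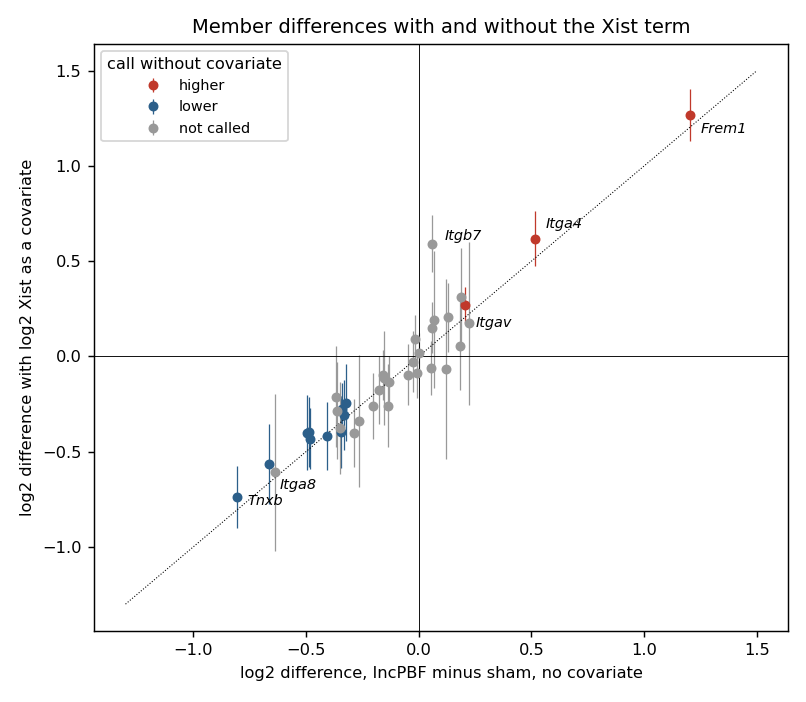
Log2 difference between the IncPBF and sham groups for the 39 members tested, without a covariate on the horizontal axis and with log2 Xist as a covariate on the vertical axis, with standard errors of the latter. With the covariate the difference rests mainly on IncPBF lung 1 against the sham lungs. Points near the dotted line of equality changed little: Frem1 is at 1.20 and 1.27 and Tnxb at -0.81 and -0.74, while Itgb7 moves from 0.058 to 0.59.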

How the data were processed

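The authors deposited FPKM per gene for 10 bulk libraries of P14 lung, together with the gene length in bases. For RNA isolation the methods name a column kit and the labels Trizol, and NEBNext libraries were sequenced on a NovaSeq instrument. The submitters' processing notes name Bowtie 0.12.2 and the builds GRCm38, mm10 and hg38. The counting software and strand setting are not given in the sources used here, so fragments of overlapping genes cannot be told apart. IncPBF columns are abbreviated differently from the titles, so they were matched to the group and not to single samples, and lungs are numbered as in the columns.

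Fragments were recovered from FPKM and length: within a tolerance of 0.05, at least 99.99% of values in each lung came out whole. Molecular identifiers are not mentioned, so fragment numbers bear on counting error only. For the 15388 genes that reached 0.5 FPKM on average, log2(FPKM + 0.1) was fitted with limma 3.58.1 (lmFit, eBayes with a trend) in R 4.3.3 over all 10 lungs without covariates; the pseudocount understates the differences of low genes. Single values were compared by exact two-sided permutation over 252 assignments. P-values weigh a difference between the groups against the spread between these lungs. The fit was also run on simulated independent counts with 1 dispersion for all genes and no sex-linked signal. That setting is simpler than these lungs, so it does not vouch for the calls made here. Python 3.11.15, pandas 2.3.3 and matplotlib 3.10.9 were used for the rest.

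The members, gene lists and marker lists were chosen with earlier results of these data known, so lists are described by counts and medians. All 40 members are accounted for. Values in every lung are given for members that passed the test without overlap of the groups and for the most abundant member of each role. Lama3 and Itgb8 were added after their values were seen. In the pathway lists up to 3 genes in each direction are named, besides Col4a3 and Col4a4, also chosen after their values were seen, and some genes counted in the lists are not reported here by name. The alternatives were other pseudocounts (1, 0.01), filters (a mean of 1, or none), scalings, a replicate block, eBayes without the trend, limma-voom, log2 Xist as a covariate, a length correction (lowess span of 0.3), a minimum of 1.5-fold and each lung left out. Added after the data were seen were the Xist covariate without a filter and a correction for GC content and length. No batch, litter or sex is given in the labels.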

Additional observations from a re-analysis of the deposited data

Results flagged for a closer look

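Of the 80 groups of 5 lungs (40 members in both groups), 3 held a lung set apart from the others by a gap larger than Dixon's 95% limit, and chance alone flags about 1 group in 20. Itgb7 was 8.40 FPKM in IncPBF lung 1 and 4.73 to 5.69 FPKM in the other IncPBF lungs. Without that lung the log2 difference of Itgb7 was -0.076, and with log2 Xist as a covariate, a fit in which that lung is the one IncPBF lung at the low Xist level of the sham lungs, it was 0.59 with an adjusted p of 0.0507 from limma. Lamb3 was 15.9 FPKM in IncPBF lung 4 and 19.4 to 20.8 FPKM in the other IncPBF lungs. Fras1 was 4.56 FPKM in sham lung 5 and 2.81 to 3.26 FPKM in the other sham lungs.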

How the results depend on the processing

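With log2 Xist as a covariate, 328 genes were upregulated and 413 downregulated, and 2 and 1 members. With this covariate and no filter the counts were 613 and 324, and 1 and 1. A minimum of 1.5-fold left 775 and 678 genes, and 1 and 2 members. Under the other alternatives that kept all lungs, 3 members were upregulated (4 without a filter, with Itgb8) and 7 (no filter) to 14 (limma-voom) downregulated, beside 2125 to 3559 and 1782 to 2693 of all genes. With 1 lung left out, 3 members were upregulated and 7 to 17 downregulated, 17 without sham lung 3, beside 1950 to 2535 and 1919 to 2699 of all genes. Of the 13 changed members 10 passed in each of these 10 fits; the others were Lama2, Agrn and Fn1. Agrn was also lost with a pseudocount of 0.01, an equal total, no filter, no trend and both smoothed corrections, Lama2 with no filter and the length correction, and Fn1 with no filter. The fit with the replicate block gave 3 and 13 members, but same-numbered lungs did not deviate together (correlations of -0.07 to 0.09), and 2 of the 5 IncPBF lungs correlated best with the sham lung of their own number.

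Signs turned only in members that had not passed. With log2 Xist as a covariate, with or without the filter, the log2 differences were -0.062 for Itga2, -0.065 for Itgb4 and 0.093 for Itga9. With an equal total they were 0.071 for Itga5, 0.062 for Itga9, 0.056 for Lama5 and 0.031 for Lamc1. Quantile normalization gave -0.021 for Itga10, 0.0062 for Itga5 and 0.0023 for Itga9. The length correction gave 0.0076 for Itga5, 0.042 for Itga9, -0.00016 for Itgb1, 0.082 for Lama5 and 0.019 for Lamc1, and with GC content added 0.018, 0.042, -0.0049, 0.091 and 0.017. Leaving out 1 lung gave -0.0087 to 0.097 for Itga2, -0.063 to 0.14 for Itga10, -0.090 to 0.30 for Itgb4, -0.059 to 0.031 for Itga5, -0.057 to 0.022 for Itga9, -0.076 to 0.13 for Itgb7, -0.024 to 0.018 for Itgb1, -0.070 to 0.045 for Lama5 and -0.095 to 0.010 for Lamc1. The cause was not tested. Shares by fragments in place of FPKM moved Lama2 to 15.5% in the IncPBF and 15.7% in the sham group. Differences in members such as Itga10, Itgb4 and Lama1, with as few as 51 to 73 fragments in a lung, are limited by depth.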
